A study of Mus musculus with 16 samples.

Results

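The genotype-by-diet interaction in skeletal muscle was examined: the difference between mice lacking the cannabinoid 1 receptor in muscle (CB1KO) and wild-type mice (WT) on a diet high in fat and sugar (HFHS), minus the same difference on a standard diet (SD). All 16 of the 16 arrays entered it, 4 in each of the groups WT_SD, CB1KO_SD, WT_HFHS and CB1KO_HFHS, assigned from the sample titles, and 28972 genes were tested. A negative interaction means that the genotype difference was lower on HFHS than on SD, and a positive one that it was higher. The question is which genes and pathways differ between the genotypes on 1 diet only, or in opposite directions on the 2 diets.

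The mice were males of 21 to 23 weeks, collected after 15 weeks on their diet, and the series design counts 4 biological replicates in each group. SD supplied 16.7% of its energy as fat and 12.4% as sugar, and HFHS 49.2% and 32.2%. Every group carried a floxed CNR1 gene, and Cre was driven by the ACTA1 promoter, which is active in striated muscle fibres, so the other cells of a muscle keep an intact gene. CB1KO stands for CNR1flox/flox-Cre+ animals (Skm-CB1R-/-) and WT for their Skm-CB1R+/+ littermates. The growth protocol calls both genotypes Cre+, and for the CB1KO_SD and WT_HFHS arrays the diet among the sample characteristics contradicts the title, the source name and the description. The titles were followed throughout. The labels name no particular muscle, and they do not say which animals received the vehicle or the S961 that the treatment protocol mentions.

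The cannabinoid 1 receptor, encoded by Cnr1, is a G protein-coupled receptor for the endocannabinoids anandamide and 2-arachidonoylglycerol. It signals mainly through inhibitory G proteins that lower cyclic AMP, and is best known from neurons, though muscle, liver and fat carry it as well. Diets rich in fat tend to raise endocannabinoid levels, and the receptor is known for its effects on energy balance and on insulin sensitivity.

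Levels are given as log2 processed signal minus the 75th percentile of the array, so 0 is the level of the gene that 75% of probes do not exceed. Differences are log2 differences of group means, CB1KO minus WT, and errors on them are standard errors (SE) of the fitted model. Between 56.7% and 75% of the spots of an array were well above background, and 0 were saturated. The number of arrays limits the precision, and the median SE of the interaction over all genes was 0.34. All SD arrays were on 1 slide and all HFHS arrays on the other, and within each slide WT filled 1 row and CB1KO the other. A shift common to a whole slide drops out of the interaction, but each group had a slide row of its own, so group and row cannot be told apart. The arrays differed in their spread of signal. Its standard deviation on the log2 scale was lowest for CB1KO_SD replicate 2, at 2.89, and highest for CB1KO_HFHS replicate 1, at 3.97, with 3.14 to 3.69 for the remaining 14. CB1KO_HFHS replicate 1 also stood apart from replicates 2 to 4 of its group in transcripts of the pancreas, described with the genes lower on HFHS. Markers of skeletal muscle fibres were high on all arrays, with a mean level of 7.89 to 8.20 in WT_SD, 7.89 to 8.29 in CB1KO_SD, 7.68 to 8.12 in WT_HFHS and 7.51 to 8.28 in CB1KO_HFHS.

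The Cnr1 probe read -2.03, -2.28, -2.98 and -3.64 on the WT_SD arrays and -2.56, -3.69, -3.41 and -2.23 on the CB1KO_SD arrays. On HFHS it read -1.93, -2.34, -3.18 and -1.75 in WT and -1.49, -2.93, -2.44 and -2.91 in CB1KO. The genotypes overlapped on both diets, the differences were -0.24 and -0.14, and the interaction was 0.09 ± 0.64 (missing p under 0.05). On WT_SD replicate 4 and CB1KO_SD replicate 2 the probe lay below the lowest signal counted as well above background. The difference on SD and the interaction therefore rest partly on background values. Where the probe lies relative to the deleted part is not known from the sources used here, so it does not check the genotype labels.

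No gene passed the threshold of 0.05 for the adjusted interaction p (0% of those tested, limma with Benjamini-Hochberg adjustment), and the smallest adjusted p was 0.357, for Hspa1a. At an unadjusted p under 0.05, 608 genes had a positive interaction (2.1%) and 444 a negative one (1.53%), in all 1052 (3.63%). Under 0.01 there were 210 (0.725%). These shares are below those a threshold of 0.05 or 0.01 admits where no gene differs, so the genes described here are ranked candidates and not calls on the interaction. With quantile normalization after normexp background correction 1 gene, Hspa1a, passed the adjusted threshold (limma adjusted p = 0.0348), and without CB1KO_HFHS replicate 1 there were 11, of which 10 were the pancreatic transcripts. Leaving out that array favours calls on those transcripts. Within SD 1 gene passed the adjusted threshold for the genotype difference (0.00345%), and within HFHS 72 did (0.249%), 51 higher and 21 lower in CB1KO. A call on 1 diet and not on the other does not show that the diets differ. The median genotype difference over all genes was -0.12 on SD and -0.14 on HFHS, and with quantile normalization and normexp it was -0.03 and -0.02. The median interaction was -0.01.

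The 210 genes with an unadjusted interaction p under 0.01 were sorted by the size of their genotype difference on each diet. A difference of at least 1 on SD and under 0.5 on HFHS was seen for 12 genes, 5 higher and 7 lower in CB1KO. The converse, at least 1 on HFHS and under 0.5 on SD, was seen for 36, of which 27 had a positive and 9 a negative interaction. A further 26 differed by at least 0.5 in opposite directions, 19 higher and 7 lower in CB1KO on SD, 8 differed by at least 0.5 in the same direction, and the other 128 had smaller differences on at least 1 diet. The sorting uses the same values as the contrast and is a description. Interactions are given with their SE, and those of the genes named from here on had an unadjusted p under 0.05 unless said to miss it.

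**Figure D1:**
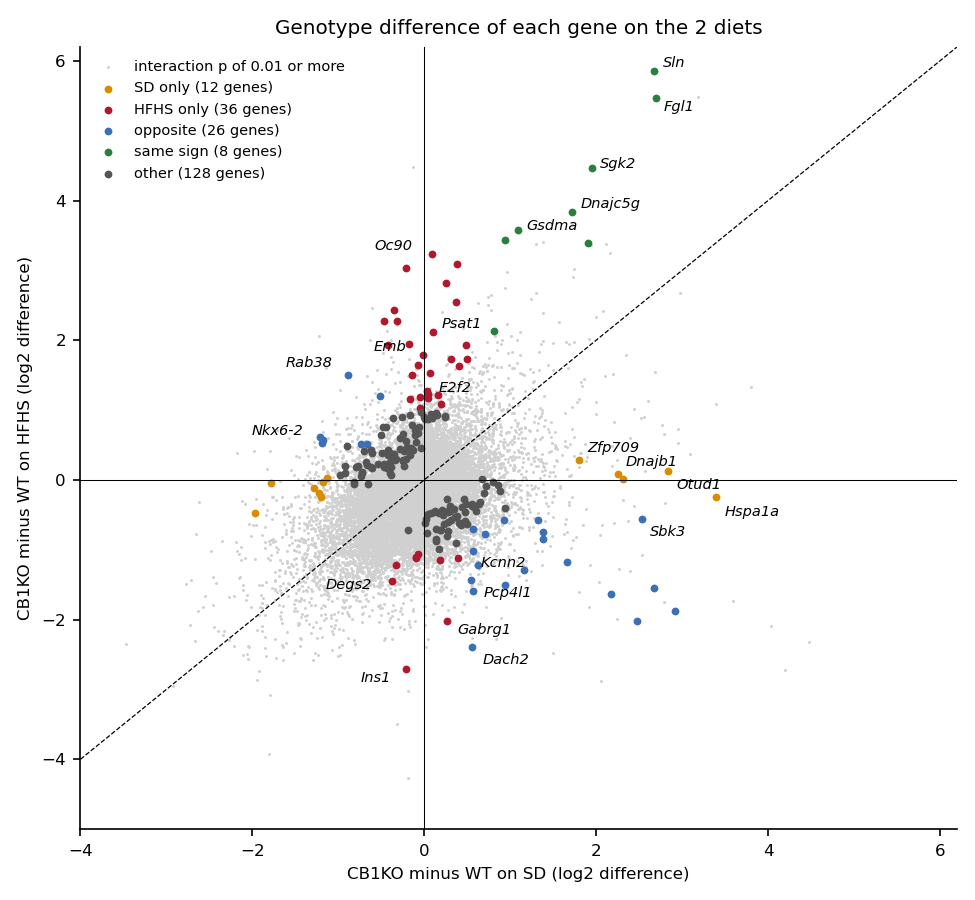
Genotype difference (CB1KO minus WT, log2) of each of the 28972 genes on SD (horizontal axis) and on HFHS (vertical axis), 1 point per gene. Coloured points are the 210 genes with an unadjusted interaction p under 0.01, sorted by pattern, and the dashed line marks equal differences on both diets; Hspa1a and Otud1 lie far to the right near 0 on HFHS, and Sln and Fgl1 lie high above the line.

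The clearest genotype difference seen on SD alone concerned heat shock genes. Heat shock proteins are chaperones that bind unfolded proteins, and their genes are switched on by heat shock factor 1 when proteins unfold in the cytosol. Hspa1a, which encodes the stress-inducible HSP70 chaperone, read -1.15, -1.05, -1.20 and -1.33 on the WT_SD arrays and 1.47, 2.5, 2.09 and 2.79 on the CB1KO_SD arrays. On HFHS it read -1.43, -0.04, -0.04 and -1.40 in WT and -1.70, -0.91, -1.07 and -0.21 in CB1KO. All CB1KO arrays lay above all WT arrays on SD, while the genotypes overlapped on HFHS. On SD it rose by 3.40 in CB1KO (limma adjusted p = 0.0155), against -0.24 on HFHS, and its interaction of -3.64 ± 0.55 (SE) had the smallest p of all genes (limma, n = 16 arrays, p = 1.23e-05). Over the 29 alternatives this p ran from 1.2e-06 to 8.05e-05. The call on SD was lost, leaving 0 genes past the adjusted threshold, without WT_SD replicate 1, without WT_SD replicate 3, without CB1KO_SD replicate 4 and with the SD arrays alone. Hspa1b, a near-identical copy, was not tested under its own symbol, and the array may not separate the copies.

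Dnajb1, the HSP40 partner that delivers unfolded proteins to HSP70, read 2.45, 2.84, 1.98 and 1.56 in WT_SD and 3.0, 4.17, 5.06 and 5.62 in CB1KO_SD. Its level on HFHS was 2.30, 2.25, 2.32 and 2.49 in WT and 2.37, 1.98, 2.58 and 2.75 in CB1KO. The 4 CB1KO_SD arrays were the highest of the 16. The genotype difference was 2.25 on SD and 0.08 on HFHS, with an interaction of -2.17 ± 0.62. Dnajb4, a relative of Dnajb1 abundant in muscle, read 0.59, 0.58, 0.59 and 0.39 in WT_SD, 0.68, 1.06, 1.38 and 1.26 in CB1KO_SD, 0.44, 0.74, 0.79 and 0.57 in WT_HFHS and 0.04, 0.33, 0.19 and 0.63 in CB1KO_HFHS. It was above every WT array on SD in CB1KO, with differences of 0.56 on SD and -0.34 on HFHS and an interaction of -0.90 ± 0.23. Hspa4l, an HSP110 nucleotide exchange factor, had an interaction of -0.47 ± 0.21, which stayed under 0.05 in 14 of 29 alternatives.

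Of the 28 heat shock chaperones tested, these 4 had a negative interaction at p under 0.05 and none a positive one, or 14.3% beside 1.53% of all genes. The median interaction of the list was -0.16 beside -0.01 over all genes, and its median genotype difference was 0.00 on SD and -0.18 on HFHS. The difference on SD was therefore carried by a few members of the list, with Hspa1a and Dnajb1 far beyond the rest.

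Because heat shock factor 1 binds GAA and TTC repeats, the 250 bases before the start of these genes were searched for GAANNTTC or TTCNNGAA, the 2 arrangements of inverted GAA units, each of which reads the same on both strands. RefSeq promoters (GRCm38.p6) held at least 1 of them in 4218 of 32851 cases, or 12.8%. In the Hspa1a promoter 1 match began at base -104, counted back from the start. Of the 2 starts of Dnajb4, 1 had a match beginning at base -14, while neither start of Dnajb1 nor that of Hspa4l had these letters in the window. The Hspa1a promoter is printed as the one of the gene with the smallest interaction p, from chr17:34972157-34972406, minus strand, with the match in capitals.
Hspa1a: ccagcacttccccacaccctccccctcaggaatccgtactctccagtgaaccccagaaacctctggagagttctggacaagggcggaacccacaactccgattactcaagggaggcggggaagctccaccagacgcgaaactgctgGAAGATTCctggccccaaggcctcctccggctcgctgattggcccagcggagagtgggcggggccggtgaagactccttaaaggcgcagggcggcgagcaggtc

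Otud1, a deubiquitinase, showed the same pattern as Hspa1a, with levels of -0.99, -0.32, -0.78 and -1.90 in WT_SD and 1.22, 1.66, 2.09 and 2.36 in CB1KO_SD. On HFHS the WT arrays read -1.69, -0.86, -0.49 and -0.91 and the CB1KO arrays -1.64, -1.71, -0.77 and 0.72. Every CB1KO_SD array was above the other 12, and the difference was 2.83 on SD and 0.13 on HFHS, with an interaction of -2.70 ± 0.70. Zfp709, a zinc finger gene, was not well above background on any WT_SD array, and read -4.19, -4.84, -3.70 and -3.54 in CB1KO_SD, -3.54, -3.64, -3.82 and -3.95 in WT_HFHS and -3.33, -3.96, -3.11 and -3.40 in CB1KO_HFHS. On CB1KO_SD replicate 2 it also lay below the lowest signal counted as well above background. The interaction of Zfp709 therefore rests on WT_SD values that are only a bound, and it has no stated size. Its p stayed under 0.05 in 25 of 28 alternatives.

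Immediate early genes, which cells transcribe within minutes of a stimulus without new protein synthesis, leaned the same way. Of 37 tested, 33 had an interaction below 0, with a median of -0.88 beside -0.01 over all genes. Their median genotype difference was 1.39 on SD, where 36 of 37 lay above 0, and 0.38 on HFHS. At p under 0.05, 6 had a negative interaction (16.2% beside 1.53% of all genes) and 1 a positive one, the phosphatase gene Dusp4 at 0.76 ± 0.34. The mean level of the list was 1.32, 1.72, 0.58 and 0.57 on the WT_SD arrays and 2.09, 2.15, 2.41 and 2.76 on the CB1KO_SD arrays. On HFHS it was 0.45, 0.43, 0.90 and 1.07 in WT and 0.29, 0.56, 1.40 and 2.02 in CB1KO. The 4 CB1KO_SD arrays were the highest of the 16, and on HFHS the genotypes overlapped because CB1KO arrays lay on both sides of the WT range. The count of 6 was 3 without WT_SD replicate 3 or without CB1KO_HFHS replicate 1, 11 without WT_SD replicate 2 and 13 without CB1KO_HFHS replicate 4.

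Ier5, whose product binds heat shock factor 1, read -1.98, -2.04, -2.24 and -2.40 in WT_SD, -1.72, -1.48, -1.42 and -1.26 in CB1KO_SD, -1.80, -1.78, -1.91 and -1.99 in WT_HFHS and -1.84, -2.0, -2.26 and -2.14 in CB1KO_HFHS. Its CB1KO_SD arrays were the 4 highest of the 16, with differences of 0.69 on SD and -0.19 on HFHS and an interaction of -0.88 ± 0.19; a second probe gave -1.48. Atf3, a stress-induced transcription factor, read -0.01, 1.59, 0.10 and -0.40 in WT_SD, 2.12, 3.51, 3.99 and 4.05 in CB1KO_SD, -1.33, 1.0, 0.53 and 0.03 in WT_HFHS and -0.64, 0.07, 0.28 and 2.02 in CB1KO_HFHS. It was higher on all CB1KO_SD arrays than on any of the other 12, with an interaction of -2.72 ± 0.92.

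Jun, a component of the AP-1 transcription factor, differed by 0.65 on SD and -0.32 on HFHS, with an interaction of -0.98 ± 0.32. The differences of Ier2 were 1.39 and -0.18 (interaction -1.57 ± 0.63), and those of the transcription factor Egr2 1.81 and 0.38 (interaction -1.43 ± 0.64). Egr1, a related factor, differed by 2.38 and -0.59, with an interaction of -2.96 ± 1.29. All 6 genes had a higher mean in CB1KO on SD, while on HFHS their differences lay on both sides of 0.

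Of the genes of inflammation, Il6, the cytokine in the study's title, read -3.30, -2.70, -3.39 and -3.87 in WT_SD, -1.77, -2.76, -0.95 and 0.98 in CB1KO_SD, -3.36, -3.41, -3.91 and -2.75 in WT_HFHS and -3.44, -3.53, -3.52 and -2.14 in CB1KO_HFHS. It was highest on CB1KO_SD replicate 4, and CB1KO_SD replicate 2 lay within the WT range. On WT_SD replicate 4 and CB1KO_SD replicate 2, Il6 lay below the lowest signal counted as well above background. Its difference on SD and its interaction therefore rest partly on background values. The difference was 2.18 on SD and 0.20 on HFHS, with an interaction of -1.99 ± 0.87, whose p stayed under 0.05 in 14 of 28 alternatives. Socs3, which shuts off signalling by the interleukin 6 receptor, differed by 2.24 on SD and 0.28 on HFHS (interaction -1.96 ± 0.97, missing p under 0.05). The chemokine gene Cxcl1 differed by 1.64 and -0.63 (interaction -2.27 ± 1.06, missing p under 0.05). Neither Socs3 nor Cxcl1 reached p under 0.05, while Nfkbiz, an NF-kappaB cofactor, did with an interaction of -0.77 ± 0.32. Traf1, on the same list of NF-kappaB targets, went the other way at 0.77 ± 0.35, and the median interaction of its 22 genes was -0.11. The 27 inflammatory cytokines and chemokines tested did not lean to 1 side. Of these 14 had an interaction above 0 and 13 below, with a median of 0.02. Their median genotype difference was 0.27 on SD and 0.40 on HFHS. Of the 27 genes of interleukin 6 and STAT3 signalling only Il6 had p under 0.05 (3.7% beside 1.53% of all genes). That list's median interaction was -0.16. Has1, a hyaluronan synthase, read -3.69, -2.01, -3.92 and -4.75 in WT_SD and -0.54, -0.18, -0.16 and 1.71 in CB1KO_SD without overlap, and its differences were 3.80 on SD and 1.33 on HFHS (interaction -2.47 ± 0.95). Megf10, a receptor of muscle satellite cells, differed by 0.80 on SD and -0.03 on HFHS (interaction -0.83 ± 0.26).

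Mstn, the myostatin gene of the study's title, encodes a secreted factor that limits muscle growth. It read 3.51, 3.16, 2.81 and 2.86 in WT_SD, 1.41, 2.24, 3.20 and 2.93 in CB1KO_SD, 2.97, 2.92, 1.46 and 3.24 in WT_HFHS and 2.5, 1.37, 1.74 and 1.42 in CB1KO_HFHS. The genotypes overlapped on both diets, the differences were -0.64 and -0.89, and the interaction was -0.25 ± 0.61 (missing p under 0.05). None of the 25 genes of myostatin and activin signalling had an interaction p under 0.05.

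With all arrays, 36 genes were in the class with a difference on HFHS alone and 12 in the one on SD alone, but the order depends on the arrays and the fit. SD alone had the larger class with array weights (113 against 95), without both arrays of unusual spread (158 against 69), without WT_SD replicate 2 (38 against 30), without CB1KO_SD replicate 1 (37 against 34) and without CB1KO_SD replicate 2 (40 against 35). Of the 72 genes called on HFHS, 66 lay in the same direction on SD and 6 in the other. Their median difference was 1.65 on HFHS and 0.50 in the same direction on SD. On SD 38 of the 72 had an unadjusted p under 0.05, against 2615 of all 28972 genes. Because they were called on HFHS, that 71 of them were larger there follows from the choice. At an unadjusted interaction p under 0.05 there were 59, beside 3.63% of all genes, and none passed after adjustment (smallest 0.84). The choice favours that count too, because the difference on HFHS is part of the interaction, so nothing is read from it. The number called depends on single arrays: it was 15 without CB1KO_HFHS replicate 3 and 134 without CB1KO_HFHS replicate 1. Among genes higher in CB1KO on HFHS only, E2f2, a transcription factor of the cell cycle, read 0.44, 0.23, 0.07 and 0.64 in WT_SD, 0.55, -0.13, 0.43 and 0.79 in CB1KO_SD, 0.70, 0.12, -0.34 and 0.33 in WT_HFHS and 1.60, 1.47, 1.89 and 1.96 in CB1KO_HFHS. All CB1KO_HFHS arrays were above the other 12. It rose by 1.53 on HFHS (limma adjusted p = 0.0177) against 0.07 on SD, and the interaction was 1.46 ± 0.33.

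Emb, which encodes embigin, a chaperone of monocarboxylate transporters, read -0.62, -0.66, -1.55 and -0.08 in WT_SD, -0.73, -0.99, -1.02 and -0.21 in CB1KO_SD, -0.34, -1.45, -1.26 and -0.94 in WT_HFHS and 0.79, 0.90, 1.0 and 0.44 in CB1KO_HFHS. It too was higher on all CB1KO_HFHS arrays than on any other, by 1.78 over WT_HFHS (limma adjusted p = 0.0249), with an interaction of 1.79 ± 0.43. Ctxn3, which encodes the membrane protein cortexin 3, read 2.72, 2.38, 2.11 and 1.98 in WT_SD, 2.79, 2.93, 2.45 and 2.99 in CB1KO_SD, 1.67, 1.82, 0.80 and 1.71 in WT_HFHS and 3.15, 3.09, 3.57 and 3.94 in CB1KO_HFHS. Its lowest group was WT_HFHS and its highest CB1KO_HFHS, a rise of 1.94 (limma adjusted p = 0.00605) against a difference of 0.49 on SD, with an interaction of 1.45 ± 0.36.

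Vmn1r65, which carries the name of a vomeronasal receptor, read 0.77, 0.17, -0.26 and 0.42 in WT_SD, -0.24, 0.52, -0.11 and 0.63 in CB1KO_SD, 0.18, -0.63, -0.49 and -0.10 in WT_HFHS and 1.25, 1.59, 1.73 and 1.01 in CB1KO_HFHS. It rose by 1.65 on HFHS (limma adjusted p = 0.0216), with an interaction of 1.73 ± 0.38, while the genotypes overlapped on SD. Golga7b, an accessory factor of protein palmitoylation, differed by 1.5 on HFHS and -0.14 on SD (interaction 1.63 ± 0.41), but its second probe gave an interaction of only 0.39. Oc90, which encodes a matrix protein of inner-ear otoconia, was well above background on the CB1KO_HFHS arrays alone, at -4.35, -3.16, -2.58 and -2.86. It rose at least 2.92-fold over WT_HFHS (limma adjusted p = 0.0101), where at least marks a bound, because the WT level is set to the lowest signal that counts as well above background on each array. Oc90 passed the filter on dim probes, which asks for 4 arrays well above background, only through the group where it is high, so its call on HFHS was favoured by the filter. The interaction of Oc90 has no size that can be stated for the same reason.

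Growth arrest genes and a gene of serine synthesis were among those raised on HFHS. Gadd45a, a growth arrest gene that muscle also raises after loss of its nerve, read 2.78, 2.56, 3.15 and 3.14 in WT_SD, 2.88, 2.91, 3.29 and 3.33 in CB1KO_SD, 2.45, 2.43, 2.59 and 2.73 in WT_HFHS and 3.44, 3.49, 3.87 and 3.77 in CB1KO_HFHS. It rose by 1.09 on HFHS (limma adjusted p = 0.0177) with a difference of 0.19 on SD, and the CB1KO_HFHS arrays were the 4 highest of the 16 (interaction 0.90 ± 0.24). Cdkn2a, which encodes the cell cycle inhibitors p16 and p19ARF, rose by 2.51 on HFHS (limma adjusted p = 0.0227) and differed by 0.74 on SD (interaction 1.76 ± 0.60). Of 27 genes of growth arrest and p53 targets, 3 had a positive interaction at p under 0.05 (11.1% beside 2.1% of all genes), the third being Sesn2 at 0.30 ± 0.13, and 2 a negative one (7.41% beside 1.53%), Gadd45b at -0.71 ± 0.29 and Plk2 at -0.74 ± 0.32.

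Psat1, the transaminase of serine synthesis, read -1.27, -1.05, -0.75 and -0.76 in WT_SD, -0.71, -1.68, -1.04 and 0.01 in CB1KO_SD, -0.16, -0.87, -0.95 and -0.86 in WT_HFHS and 0.83, 0.78, 2.17 and 1.84 in CB1KO_HFHS. The CB1KO_HFHS arrays were above the other 12, a rise of 2.12 (limma adjusted p = 0.0269), and the interaction was 2.01 ± 0.52. A second probe differed by only 0.36 on HFHS and by -0.35 on SD (interaction 0.71), so the size of the rise depends on the probe. Phgdh, the first enzyme of the same route, differed by -0.70 on SD and 0.43 on HFHS (interaction 1.13 ± 0.49). Atf3 and Ddit3, transcription factors of the integrated stress response, went the other way, with -0.77 ± 0.32 for Ddit3. In that list of 24 tested genes, 3 had a positive (12.5% beside 2.1%) and 2 a negative interaction (8.33% beside 1.53%) at p under 0.05, and the median was 0.00.

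Some chaperones of the endoplasmic reticulum had positive interactions, where the cytosolic ones named had negative interactions. They are induced by the unfolded protein response, in which the factors ATF6 and XBP1 bind endoplasmic reticulum stress elements. Sdf2l1, a cofactor of protein folding there, read -0.61, -1.08, -0.91 and -0.54 in WT_SD, -0.64, -0.49, -0.98 and -0.86 in CB1KO_SD, -1.15, -1.05, -0.78 and -1.18 in WT_HFHS and -0.05, -0.28, -0.05 and -0.30 in CB1KO_HFHS. It rose by 0.87 on HFHS (limma adjusted p = 0.0323) against 0.04 on SD (interaction 0.82 ± 0.22). Hsp90b1, the HSP90 of the endoplasmic reticulum, read 4.38, 4.44, 4.27 and 4.27 in WT_HFHS and 4.73, 4.75, 4.69 and 4.58 in CB1KO_HFHS without overlap, while on SD its genotypes overlapped. Its differences were -0.21 on SD and 0.35 on HFHS (interaction 0.56 ± 0.20). The calcium-binding chaperone gene Calr differed by -0.26 and 0.32 (interaction 0.59 ± 0.22), and the disulfide isomerase gene Pdia4 by -0.13 and 0.62 (interaction 0.74 ± 0.34). These were 4 of 22 genes tested (18.2% beside 2.1% of all genes), with none negative, and the list's median interaction was 0.17. The mean level of the list was 2.02 to 2.16 in WT_SD, 1.80 to 2.10 in CB1KO_SD, 2.04 to 2.17 in WT_HFHS and 2.16 to 2.37 in CB1KO_HFHS, so the genotypes overlapped on both diets.

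The 250 bases before the start of the 4 genes were searched for the endoplasmic reticulum stress element, CCAAT and CCACG with 9 bases between them, on both strands. It was rare, with 37 of 32851 RefSeq promoters (0.113%). The Hsp90b1 promoter held 2 matches, beginning at bases -212 and -107, and that of Calr held 1, beginning at base -162, while the letters were absent from the windows of Sdf2l1 and Pdia4. The mean genotype differences of Hsp90b1 and Calr were below 0 on SD and above 0 on HFHS. Their promoters are printed because they carry the element, with matches in capitals. They are from chr10:86705445-86705694 for Hsp90b1 and chr8:84846932-84847181 for Calr, both minus strand of GRCm38.p6.
Hsp90b1: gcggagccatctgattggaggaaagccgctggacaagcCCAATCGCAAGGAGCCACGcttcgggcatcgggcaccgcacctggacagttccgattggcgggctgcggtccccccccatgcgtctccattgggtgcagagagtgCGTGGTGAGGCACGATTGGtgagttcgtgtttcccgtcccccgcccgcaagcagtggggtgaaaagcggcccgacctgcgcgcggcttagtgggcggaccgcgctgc
Calr: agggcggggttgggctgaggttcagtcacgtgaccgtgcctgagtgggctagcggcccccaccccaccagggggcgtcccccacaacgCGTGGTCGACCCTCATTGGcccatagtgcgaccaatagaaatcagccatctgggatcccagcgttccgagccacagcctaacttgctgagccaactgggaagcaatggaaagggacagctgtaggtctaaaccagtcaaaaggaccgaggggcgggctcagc

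Macrophage markers formed the list with the highest median interaction, 0.90 over 23 genes, of which 22 lay above 0. The median genotype difference was 0.11 on SD and 1.08 on HFHS. Single genes varied widely, and at p under 0.05 only Cd74, the invariant chain of class II antigen presentation, was positive (4.35% beside 2.1% of all genes). It read 3.21, 3.46, 3.80 and 4.43 in WT_SD, 4.83, 3.01, 3.10 and 4.06 in CB1KO_SD, 4.13, 3.88, 3.70 and 3.53 in WT_HFHS and 5.20, 5.16, 5.03 and 4.75 in CB1KO_HFHS, with an interaction of 1.20 ± 0.51. The mean level of the list was 1.19, 0.34, 0.28 and 0.45 in WT_HFHS and 2.17, 1.31, 1.35 and 1.12 in CB1KO_HFHS. On SD it was 0.42, 0.57, 0.24 and 2.0 in WT and 1.36, 0.57, 0.28 and 1.49 in CB1KO. WT_SD replicate 4 was as high as the CB1KO_HFHS arrays, and WT_HFHS replicate 1 lay within their range. In bulk muscle, more cells of a type and more RNA per cell cannot be told apart.

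Apln, a vascular and muscle-derived peptide hormone, differed by -0.01 on SD and 1.09 on HFHS (interaction 1.11 ± 0.41). Among smaller positive interactions, that of the secreted factor gene Angptl6 was 0.63 ± 0.15, and its genotypes did not overlap on either diet, with differences in opposite directions of -0.34 on SD and 0.29 on HFHS. For Htatip2, an oxidoreductase, the interaction was 0.65 ± 0.16, and for the guanine nucleotide exchange factor gene Arhgef5 it was 0.89 ± 0.22. Cell cycle genes had a median interaction of 0.48 over 21 genes, 2 of them positive at p under 0.05 (9.52% beside 2.1% of all genes) and none negative. Ccne1 differed by -0.44 on SD and 0.16 on HFHS (interaction 0.61 ± 0.21). Mcm2 differed by -0.20 and 0.25 (interaction 0.45 ± 0.17), so part of each interaction lay on SD.

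**Figure D2:**
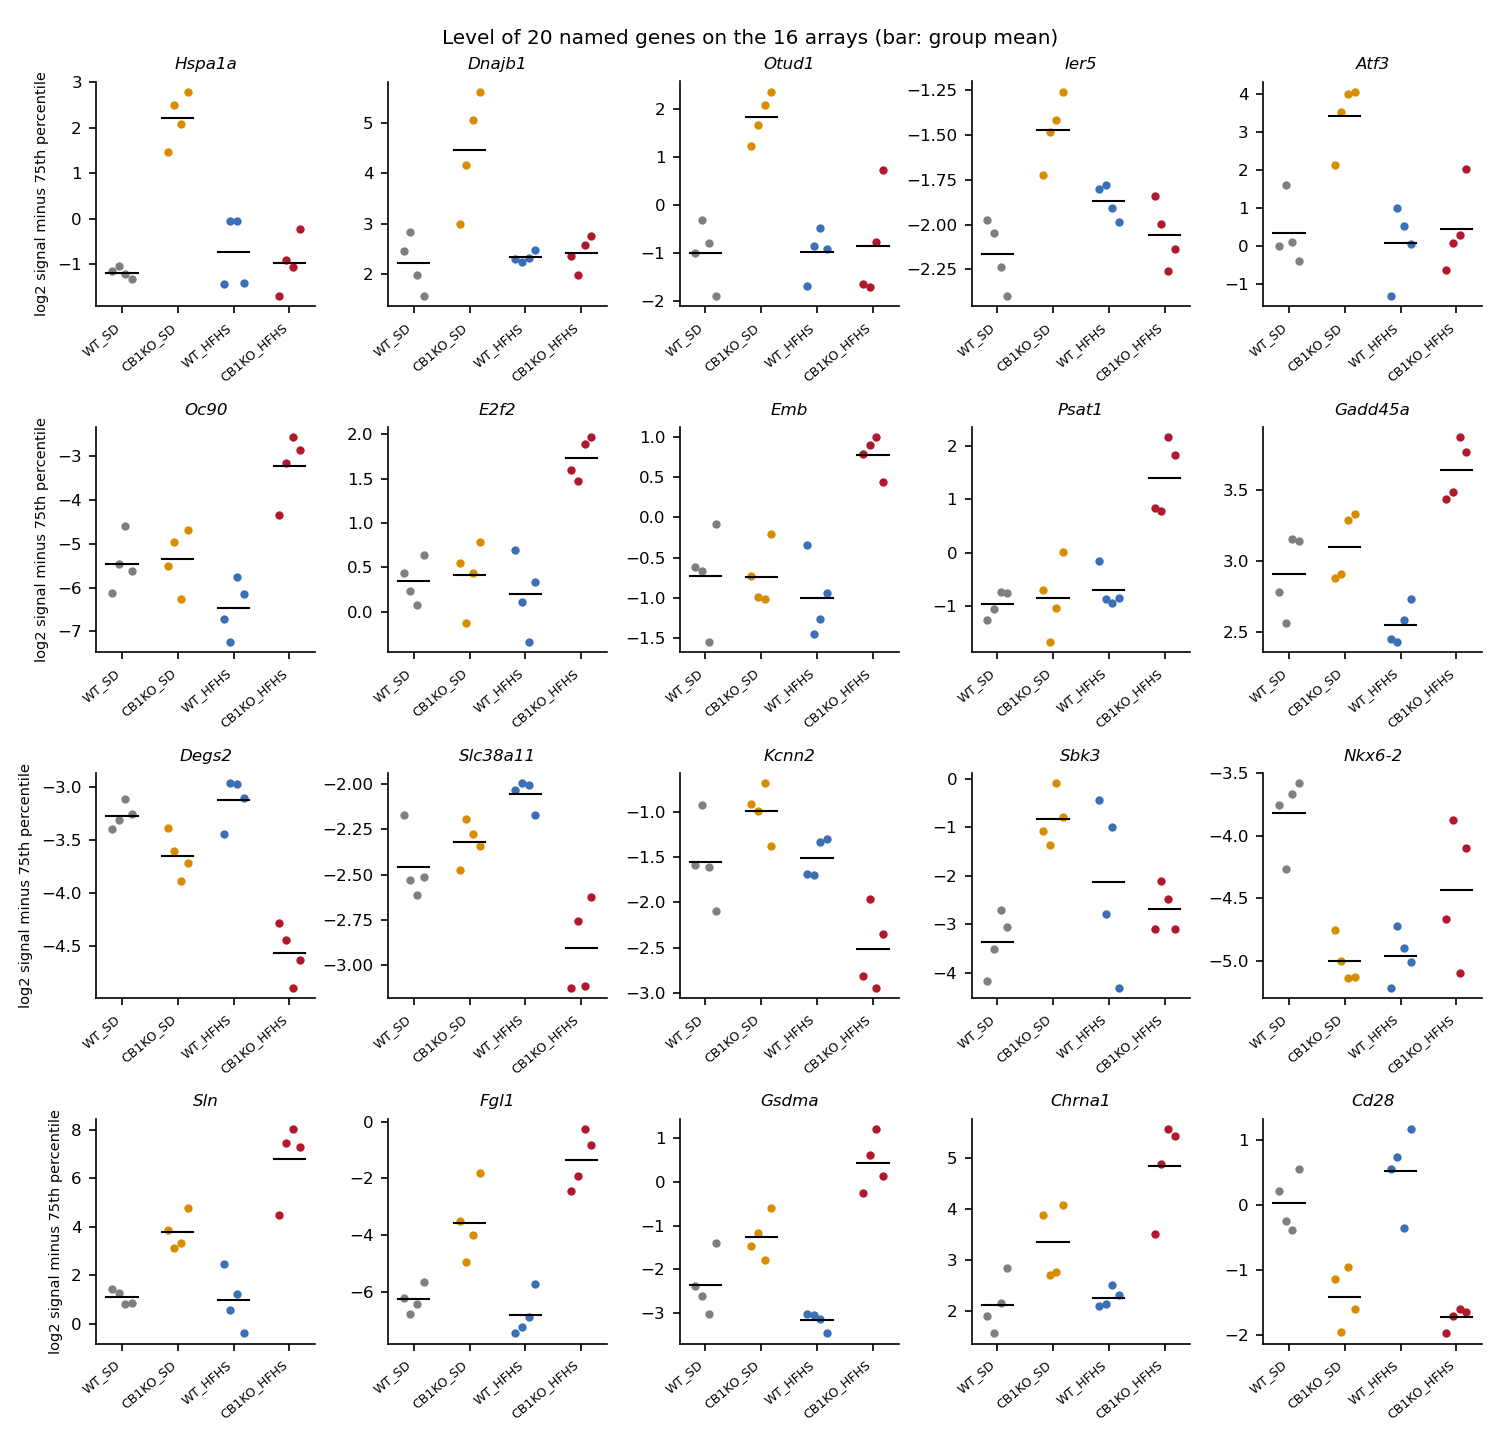
Level of 20 named genes (log2 processed signal minus the 75th percentile of the array) on each of the 16 arrays, 1 point per array, with a bar at the group mean; the vertical scale differs between panels. Hspa1a, Dnajb1, Otud1, Ier5 and Atf3 are high on the 4 CB1KO_SD arrays, and Oc90, E2f2, Emb, Psat1 and Gadd45a on the 4 CB1KO_HFHS arrays.

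Genes lower in CB1KO on HFHS only included Degs2, a sphingolipid desaturase and hydroxylase. It read -3.40, -3.31, -3.12 and -3.25 in WT_SD, -3.38, -3.61, -3.88 and -3.71 in CB1KO_SD, -3.44, -2.96, -2.97 and -3.10 in WT_HFHS and -4.29, -4.44, -4.89 and -4.63 in CB1KO_HFHS. The CB1KO_HFHS arrays lay below the other 12, and only 1 of them was well above background. Degs2 fell by 1.44 on HFHS (limma adjusted p = 0.003) with a difference of -0.38 on SD, and the interaction was -1.07 ± 0.22. Slc38a11, an amino acid transporter, read -2.17, -2.53, -2.61 and -2.51 in WT_SD, -2.47, -2.20, -2.28 and -2.34 in CB1KO_SD, -2.03, -2.0, -2.01 and -2.17 in WT_HFHS and -3.12, -2.76, -3.11 and -2.62 in CB1KO_HFHS. WT_HFHS was the highest group and CB1KO_HFHS the lowest, with a fall of 0.85 on HFHS (limma adjusted p = 0.0216) and an interaction of -0.98 ± 0.20, and its second probe gave -0.43.

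Crim1, a membrane protein that binds bone morphogenetic proteins, fell by 0.75 on HFHS (limma adjusted p = 0.0432) and differed by 0.03 on SD (interaction -0.79 ± 0.20). Tmem47, a junction protein, fell by 1.00 on HFHS (limma adjusted p = 0.042) and differed by 0.18 on SD (interaction -1.17 ± 0.26), and on SD it was well above background on only 1 array of each genotype. On CB1KO_HFHS replicates 3 and 4 it read -5.03 and -4.80, below the lowest signal counted as well above background there. The fall and the interaction of Tmem47 therefore rest partly on background values. Foxd3, a transcription factor of the neural crest, fell by 1.21 on HFHS (limma adjusted p = 0.0177), against -0.33 on SD (interaction -0.88 ± 0.26). Slc40a1, the iron exporter ferroportin, read 3.65, 3.91, 3.69 and 3.64 in WT_HFHS and 2.21, 2.74, 2.36 and 3.10 in CB1KO_HFHS, without overlap, and 3.31, 3.69, 3.84 and 3.46 in WT_SD and 3.42, 3.04, 3.96 and 3.51 in CB1KO_SD. Its difference on HFHS, -1.12, missed the adjusted threshold of 0.05 (limma adjusted p = 0.0543), and its interaction was -1.03 ± 0.30. Rcan2, a regulator of calcineurin, differed by 0.39 on SD and -1.12 on HFHS (interaction -1.51 ± 0.50). Gabrg1, a GABA receptor subunit, was well above background on 3 WT_HFHS arrays and on no CB1KO_HFHS array, at least 2.15-fold lower in CB1KO (limma adjusted p = 0.16).

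Ins1, an insulin gene of pancreatic beta cells, was also among the genes lower on HFHS only, and it belonged to a group of transcripts of the pancreas that set 3 arrays apart. It read -0.39, -0.36, -0.51 and -0.20 in WT_SD, -0.58, -0.73, -0.42 and -0.56 in CB1KO_SD, -0.68, -0.36, -0.25 and 0.11 in WT_HFHS and -0.47, -3.43, -3.97 and -4.16 in CB1KO_HFHS. CB1KO_HFHS replicate 1 was at the level of the other groups, and replicates 2 to 4 were the 3 lowest of the 16. Amy2a5, a pancreatic amylase, read 2.33, 2.24, 1.59 and 1.61 in WT_SD, 1.35, 1.58, 1.94 and 2.25 in CB1KO_SD, 2.01, 1.96, 1.96 and 2.74 in WT_HFHS and 2.32, -0.35, -0.78 and -0.95 in CB1KO_HFHS. The trypsinogen gene Try4 read 0.15, -5.38, -6.29 and -6.25 in CB1KO_HFHS and between -0.88 and 0.32 on the other 12 arrays. Over the 16 arrays, 12 of the 15 genes with the highest correlation with Ins1 were on a list of pancreatic genes drawn up after these values were seen, with Pearson r from 0.894 to 0.993 for those 12, which describes how far these arrays share 1 pattern.

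That list, of 28 genes of pancreatic acinar and islet cells, had a mean level between -2.67 and -1.65 on the other 13 arrays and of -3.66, -4.13 and -4.20 on CB1KO_HFHS replicates 2 to 4. Of 27 tested, 11 had a negative interaction at p under 0.05 (40.7% beside 1.53% of all genes, from which nothing is read since the list was drawn up on these values) and none a positive one, none passed after adjustment, and the median interaction was -1.40 (HFHS -1.47, SD -0.19). Without CB1KO_HFHS replicate 1, 17 were negative at p under 0.05, against 321 of all genes (1.11%), and 10 passed the adjusted threshold, out of 11 of all genes (0.038%). Leaving out the array of the group that lacks the low levels favours these counts and the adjusted p that follow. Nothing is read from them either. The 10 were Try4, Try5, Prss2, Cpb1 and Cpa1, which encode digestive proteases, Pnlip, a lipase, Zg16, a protein of secretory granules, Amy2a5, Ins1 and Ins2. On CB1KO_HFHS replicates 2 to 4, 10 of the 27 tested were well above background on no array, so the list's mean level and median there rest in part on background values. Among the 10 called this held for Try4, Cpb1 and Zg16, whose interactions have no stated size. Without replicate 1, Try4 was at least 18.3-fold, Cpb1 at least 8.86-fold and Zg16 at least 3.61-fold lower in CB1KO_HFHS than in WT_HFHS, and their interactions had limma adjusted p = 5.93e-05, limma adjusted p = 0.00144 and limma adjusted p = 0.013. Ins1, well above background on 2 of replicates 2 to 4, had an interaction of -2.5 ± 0.83 with all arrays and -3.35 (limma adjusted p = 0.000204) without replicate 1. Amy2a5 and Ins2 were well above background on all 16 arrays, with interactions of -1.94 ± 0.79 and -1.15 ± 0.45. For Pnlip, with 2 of those 3 arrays above background, it was -1.92 ± 0.66. Try5, Prss2 and Cpa1 had 1 of the 3 above background, so that their interactions of -2.84 ± 1.06, -1.5 ± 0.82 (missing p under 0.05) and -1.31 ± 0.78 (missing p under 0.05) rest partly on CB1KO_HFHS values near background. Muscle fibres are not known to make these digestive enzymes, and where the transcripts came from was not tested. The near-identical trypsinogen genes may share probe signal.

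**Figure D3:**
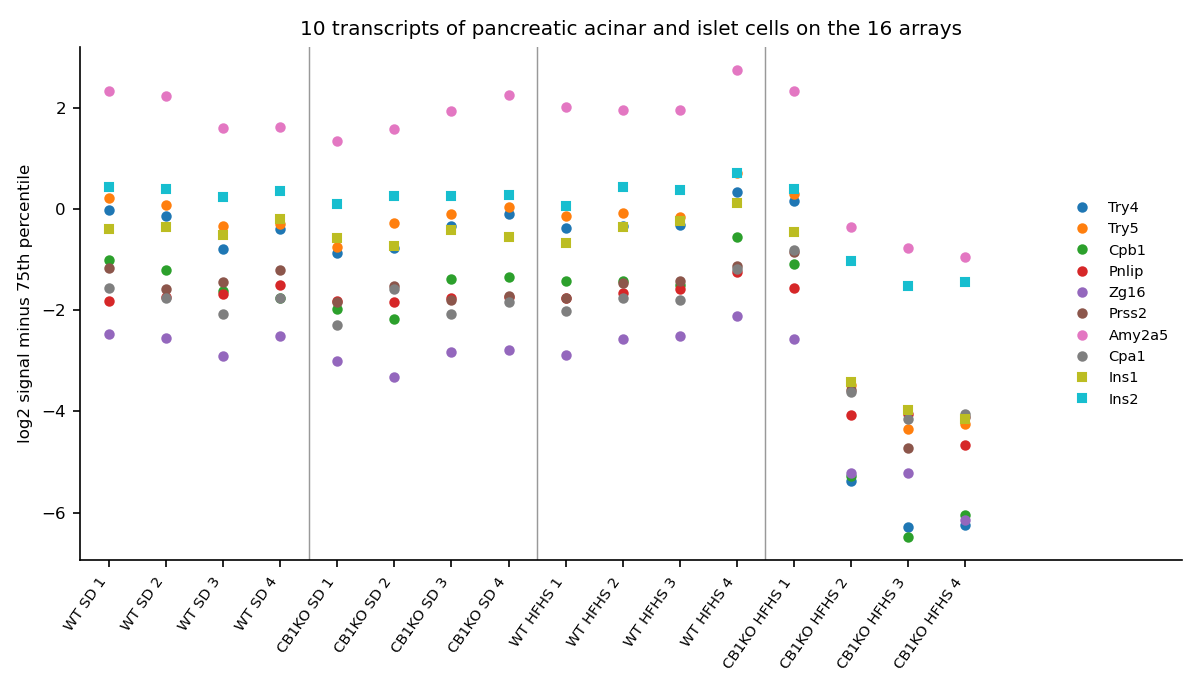
Level of 10 transcripts of pancreatic acinar cells (circles) and islet cells (squares) on each of the 16 arrays, as log2 processed signal minus the 75th percentile of the array. CB1KO_HFHS replicates 2 to 4 lie below the other 13 arrays for each of the 10, and CB1KO_HFHS replicate 1 lies among those 13. Try4, Cpb1 and Zg16 were not well above background on CB1KO_HFHS replicates 2 to 4.

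Among the genes whose genotype difference reversed, most were higher in CB1KO on SD and lower on HFHS. Kcnn2, a calcium-activated potassium channel, read -1.59, -0.93, -1.60 and -2.10 in WT_SD, -0.92, -0.99, -0.68 and -1.37 in CB1KO_SD, -1.69, -1.70, -1.34 and -1.30 in WT_HFHS and -2.82, -1.96, -2.94 and -2.35 in CB1KO_HFHS. The genotypes did not overlap on HFHS but did on SD, the differences were 0.56 and -1.01, and the interaction was -1.58 ± 0.37. Sbk3, a kinase gene of striated muscle, read -4.16, -3.51, -2.70 and -3.06 in WT_SD, -1.07, -1.37, -0.09 and -0.78 in CB1KO_SD, -0.43, -2.78, -1.0 and -4.30 in WT_HFHS and -3.10, -2.10, -2.48 and -3.09 in CB1KO_HFHS. It was higher on every CB1KO_SD array than in WT_SD, and on HFHS the genotypes overlapped. The difference was 2.53 on SD and -0.56 on HFHS, with an interaction of -3.09 ± 0.94.

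Pcp4l1, a calmodulin-binding protein gene, differed by 0.57 on SD and -1.59 on HFHS (interaction -2.16 ± 0.58). For Lamb3, a laminin chain that was well above background on only 2 WT_SD arrays, the differences were 0.92 and -0.57 (interaction -1.5 ± 0.41). Aqp4, the water channel of fast muscle fibres, differed by 0.62 and -1.21 (interaction -1.83 ± 0.51), and the vessel growth factor gene Angpt1 by 0.57 and -0.71 (interaction -1.27 ± 0.38). Dach2, a repressor of acetylcholine receptor transcription in innervated muscle, read -2.91, -0.76, -0.98 and -1.16 in WT_SD, -1.05, -1.39, -0.20 and -0.96 in CB1KO_SD, -0.79, -0.18, 0.63 and -1.15 in WT_HFHS and -4.74, -1.23, -3.40 and -1.72 in CB1KO_HFHS. Its lowest arrays were WT_SD replicate 1 and CB1KO_HFHS replicates 1 and 3, and its interaction was -2.95 ± 0.99, with other probes at -1.73 and -2.86.

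The converse, lower in CB1KO on SD and higher on HFHS, was seen in the group means of 7 genes, 2 of them with a symbol. Nkx6-2, a homeobox gene, read -3.75, -4.27, -3.66 and -3.58 in WT_SD, was not well above background on any CB1KO_SD array, and read -5.21, -4.72, -4.90 and -5.01 in WT_HFHS and -4.66, -3.87, -5.10 and -4.10 in CB1KO_HFHS. On SD it was at least 1.07-fold lower in CB1KO (limma adjusted p = 0.162), and the interaction has no stated size. On HFHS its genotypes overlapped. WT_HFHS replicates 3 and 4 and CB1KO_HFHS replicate 3 lay below the lowest signal counted as well above background on their arrays. Rab38, a small GTPase of lysosome-related organelles, read -3.51, -3.49, -3.30 and -4.02 in WT_SD, -3.70, -4.74, -6.18 and -3.25 in CB1KO_SD, -2.62, -3.93, -3.80 and -3.14 in WT_HFHS and -1.72, -2.24, -1.69 and -1.84 in CB1KO_HFHS. The genotypes did not overlap on HFHS and did on SD, where only 2 arrays of each genotype were well above background, and the interaction was 2.39 ± 0.70.

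In the list of fatty acid uptake and oxidation, 32 of the 39 genes tested had an interaction below 0. At p under 0.05, 11 were negative (28.2% beside 1.53% of all genes) and none was positive. The median was -0.57, from a median genotype difference of 0.23 on SD and -0.32 on HFHS. Plin5, which tethers lipid droplets to mitochondria, read 3.99, 5.14, 4.74 and 4.06 in WT_SD, 5.49, 4.56, 5.28 and 5.63 in CB1KO_SD, 4.99, 5.52, 5.72 and 4.26 in WT_HFHS and 3.18, 4.94, 4.48 and 4.82 in CB1KO_HFHS. The genotypes overlapped on both diets, and the interaction was -1.53 ± 0.60. Ppara, the nuclear receptor that drives oxidation genes, differed by 1.06 on SD and -0.46 on HFHS (interaction -1.52 ± 0.59), with other probes at -1.45 and -0.05. Decr1, a reductase needed to oxidise unsaturated fatty acids, had -0.84 ± 0.28, and Etfdh, which passes electrons from oxidation to ubiquinone, -0.98 ± 0.33. The other 7 were Acadvl, Acsl1, Acaa2, Cpt2, Mlycd, Slc25a20 and Acot1, with interactions from -2.33 ± 1.07 for Acot1 to -0.57 ± 0.25 for Mlycd.

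Slow-fibre genes were low on the same arrays as these oxidation genes. Slow-twitch fibres are oxidative and use slow isoforms of the sarcomere proteins. The mean of 17 slow-twitch genes was -0.63, 0.93, 2.47 and 2.17 on the WT_SD arrays and 3.88, 2.79, 3.88 and 3.01 on the CB1KO_SD arrays. On HFHS it was 2.40, 2.64, 3.98 and -0.23 in WT and -0.91, 4.09, 1.97 and 2.60 in CB1KO. WT_SD replicate 1, WT_HFHS replicate 4 and CB1KO_HFHS replicate 1 were the lowest of the 16, and the mean of the oxidation list was lowest on the same arrays within their groups, at 3.65, 4.27, 4.28 and 4.04 in WT_SD, 4.15, 4.51, 4.74 and 3.88 in WT_HFHS and 3.60, 4.41, 3.98 and 4.10 in CB1KO_HFHS. The part of slow-fibre genes in the oxidation result was not tested. The median interaction of the slow-twitch list was -2.23 with 16 of 17 below 0, yet its spread was so wide that none of those 16 reached p under 0.05. Myh7, the slow myosin heavy chain, read -1.91, -1.10, 4.70 and 4.15 in WT_SD, 6.04, 4.23, 7.07 and 4.64 in CB1KO_SD, 4.45, 3.96, 6.66 and -1.22 in WT_HFHS and -3.69, 6.41, 1.39 and 1.40 in CB1KO_HFHS (interaction -6.12 ± 3.01, missing p under 0.05). Myl3, a slow myosin light chain, had -6.81 ± 3.25 (missing p under 0.05) and Ankrd2, a stretch-response gene of slow fibres, -3.75 ± 1.95 (missing p under 0.05).

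The count of 11 oxidation genes was 4 without WT_SD replicate 1, 4 without CB1KO_HFHS replicate 1, 4 without WT_HFHS replicate 2 and 3 without WT_HFHS replicate 3. It was 5 without CB1KO_SD replicate 3, 6 without WT_SD replicate 4, 6 without CB1KO_SD replicate 4 and 7 without CB1KO_HFHS replicate 3. The median kept its sign in all 29 alternatives.

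Mitochondrial lists lay on the same side with smaller differences. All 40 genes of oxidative phosphorylation had an interaction below 0, with a median of -0.31, but only Ndufb3 at -0.53 ± 0.22 and Ndufs8 at -0.54 ± 0.24, both subunits of complex I, had p under 0.05 (5% beside 1.53%). All 23 genes of the tricarboxylic acid cycle lay below 0 with a median of -0.29. Idh2, a mitochondrial isocitrate dehydrogenase, had -1.48 ± 0.64 and Dlat, a subunit of pyruvate dehydrogenase, -0.58 ± 0.23. Esrra and Esrrg, nuclear receptors of mitochondrial genes, had -0.63 ± 0.24 and -1.87 ± 0.85. Gbe1, the glycogen branching enzyme, differed by 0.40 on SD and -0.58 on HFHS (interaction -0.98 ± 0.33), and Fndc5, the irisin precursor, by 0.50 and -0.68 (interaction -1.18 ± 0.50). Casq1, the calcium store protein of fast fibres, had differences of -0.42 on SD and 0.43 on HFHS (interaction 0.86 ± 0.27). It was the only 1 of 16 fast-twitch genes with p under 0.05 (6.25% beside 2.1% of all genes), and the list's median was 0.15. Nothing is read from a single gene about the list.

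Of the markers of vessel wall cells, none passed the adjusted threshold on HFHS, where 15 of 18 for smooth muscle and pericytes and 16 of 22 for endothelium lay below 0. The median differences there were -0.37 and -0.16, beside -0.14 over all genes. The endothelial median was near that of all genes, so nothing is read from its count. Of the 18 smooth muscle and pericyte markers, 5 had a negative interaction at p under 0.05 (27.8% beside 1.53%) and the median was -0.47. Tagln, a cytoskeletal protein of smooth muscle, read 4.35, 4.95, 4.87 and 4.12 in WT_SD, 5.08, 4.33, 4.38 and 4.53 in CB1KO_SD, 4.48, 5.27, 5.19 and 4.88 in WT_HFHS and 4.19, 4.25, 4.28 and 4.07 in CB1KO_HFHS. WT_HFHS lay above CB1KO_HFHS without overlap, and the SD groups overlapped (interaction -0.77 ± 0.32). Mylk, the smooth muscle myosin kinase, had -0.72 ± 0.27, and the smooth muscle actin gene Actg2 -1.32 ± 0.59. For the pericyte genes Kcnj8, a potassium channel, and Rgs5, a regulator of G proteins, it was -0.63 ± 0.25 and -0.49 ± 0.22. The count of 5 ran from 1 without WT_HFHS replicate 2 to 8 without WT_HFHS replicate 1. It was 2 without WT_SD replicate 1 or without CB1KO_SD replicate 1, and 3 without WT_SD replicate 4, CB1KO_SD replicate 4, WT_HFHS replicate 3, CB1KO_HFHS replicate 1 or CB1KO_HFHS replicate 4.

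Endothelial markers had a median of -0.34 over 22 genes, 3 of them negative at p under 0.05 (13.6% beside 1.53%). Flt1, a receptor for vascular endothelial growth factor, differed by 0.32 on SD and -0.54 on HFHS (interaction -0.86 ± 0.29), and the endothelial transcription factor gene Erg by 0.49 and -0.34 (interaction -0.83 ± 0.27). Sox17, a factor of arterial endothelium, differed by 1.05 and 0.19 (interaction -0.86 ± 0.37), so its difference was on SD. The mean of the smooth muscle list was 1.89 to 2.34 in WT_HFHS and 1.64 to 1.84 in CB1KO_HFHS, and that of the endothelial list 2.51 to 2.93 and 2.37 to 2.66. Smaller reversals were seen for Fzd9, a Wnt receptor, at -1.05 ± 0.27, for Rgs7bp, an anchor of G protein regulators, at -0.86 ± 0.21 and for the membrane protein gene Tmem8b at -1.07 ± 0.27.

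**Figure D4:**
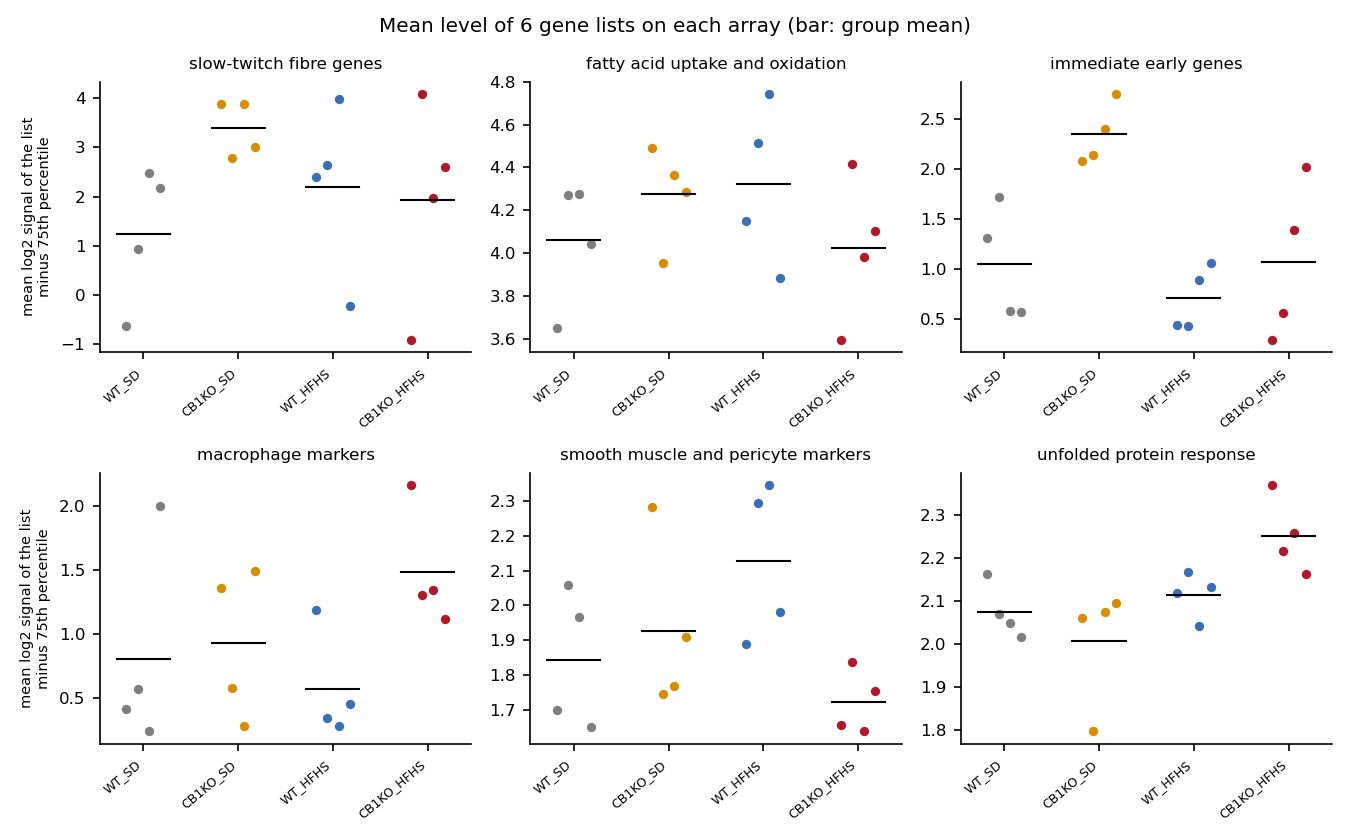
Mean level of 6 gene lists (mean over the list's genes of log2 processed signal minus the 75th percentile of the array) on each of the 16 arrays, 1 point per array, with a bar at the group mean. The immediate early genes are highest on the 4 CB1KO_SD arrays, and the slow-twitch list is far lower on 1 array of each group except CB1KO_SD.

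A last pattern was a genotype difference in the same direction on both diets that was larger on HFHS. Sln, which encodes sarcolipin, an inhibitor of the calcium pump of the sarcoplasmic reticulum, read 1.44, 1.26, 0.83 and 0.87 in WT_SD, 3.85, 3.14, 3.32 and 4.79 in CB1KO_SD, 2.47, 0.55, 1.20 and -0.40 in WT_HFHS and 4.47, 7.45, 8.04 and 7.28 in CB1KO_HFHS. CB1KO was above WT on every array of both diets, and within CB1KO_HFHS replicate 1 was the lowest. The differences were 2.68 on SD and 5.85 on HFHS (limma adjusted p = 0.00459), with an interaction of 3.18 ± 1.01. Gsdma, a pore-forming gasdermin, read -2.39, -2.60, -3.01 and -1.39 in WT_SD, -1.46, -1.17, -1.79 and -0.60 in CB1KO_SD, -3.01, -3.03, -3.13 and -3.46 in WT_HFHS and -0.26, 0.61, 1.20 and 0.13 in CB1KO_HFHS. It rose by 3.58 on HFHS (limma adjusted p = 0.00214) with a difference of 1.09 on SD, and the interaction was 2.49 ± 0.51.

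Plekhh1, a pleckstrin homology protein, read -3.79, -3.44, -3.85 and -4.02 in WT_SD, -2.10, -1.93, -2.57 and -0.87 in CB1KO_SD, -2.73, -3.79, -3.52 and -3.44 in WT_HFHS and -0.57, -0.28, 0.57 and 0.40 in CB1KO_HFHS, with no overlap on either diet. Its differences were 1.91 on SD and 3.40 on HFHS (limma adjusted p = 0.00214), and the interaction was 1.49 ± 0.50. The other named genes of this kind, and Arhgap36, whose interaction p lies just above 0.01, were not well above background on any WT array. Fgl1, a secreted fibrinogen-like protein, read -3.5, -4.95, -4.01 and -1.80 in CB1KO_SD, 3 of these arrays well above background, and -2.42, -1.91, -0.26 and -0.81 in CB1KO_HFHS. It was at least 1.35-fold higher in CB1KO on SD (limma adjusted p = 0.23) and rose at least 10.8-fold on HFHS (limma adjusted p = 0.003). A second probe of Fgl1 had smaller mean differences on both diets.

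On HFHS the kinase gene Sgk2 rose at least 6.45-fold (limma adjusted p = 0.00539), and the HSP40-type gene Dnajc5g at least 5.96-fold (limma adjusted p = 0.003). Arhgap36, a GTPase-activating protein gene, rose at least 3.41-fold (limma adjusted p = 0.00976), and Catsperg1, a subunit of the sperm calcium channel, at least 3.28-fold (limma adjusted p = 0.00483). On SD, Sgk2, Dnajc5g and Arhgap36 were well above background on 2 CB1KO arrays each and Catsperg1 on 1. All 5 passed the filter on dim probes only through CB1KO arrays, which favours such calls. Because WT levels are bounds, the interactions of these 5 genes have no stated size.

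The acetylcholine receptor genes Chrna1 and Chrnb1 had larger mean differences on HFHS than on SD. Chrna1, the alpha subunit of the muscle receptor, read 1.89, 1.55, 2.15 and 2.83 in WT_SD, 3.88, 2.69, 2.77 and 4.07 in CB1KO_SD, 2.10, 2.12, 2.5 and 2.30 in WT_HFHS and 3.5, 4.87, 5.57 and 5.43 in CB1KO_HFHS. The genotypes did not overlap on HFHS, where it rose by 2.59 (limma adjusted p = 0.0246), and on SD the difference was 1.25 with overlap, while the interaction was 1.34 ± 0.62 (missing p under 0.05). Chrnb1, the beta subunit, differed by 0.16 on SD and 0.80 on HFHS (interaction 0.64 ± 0.23), and Ngfr, the p75 neurotrophin receptor, by 0.74 and 1.65 (interaction 0.91 ± 0.35). The difference of Ngfr on HFHS passed the adjusted threshold (limma adjusted p = 0.0149) and that of Chrnb1 did not (limma adjusted p = 0.0641). Ngfr is from the list of Schwann cell and nerve markers, which leaned the other way. The 21 tested had a median interaction of -0.12, and on HFHS 16 lay below 0, with a median of -0.33 beside -0.14 over all genes. At p under 0.05 Ngfr was its only positive and Egr2 its only negative member (4.76% each, beside 2.1% and 1.53% of all genes). Of 24 genes of the neuromuscular junction and of denervation, 2 had a positive interaction at p under 0.05 (8.33% beside 2.1% of all genes), Gadd45a and Chrnb1, and 1 a negative one (4.17% beside 1.53%), Dach2. The list's median was 0.04, whose sign changed in 8 of the 29 alternatives. On HFHS, Sln, Chrna1 and Oc90 were all highest on CB1KO_HFHS replicates 2 to 4, the arrays with low pancreatic transcripts, and lower on replicate 1.

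Several genes called on HFHS differed in the same direction on SD by a smaller amount. Cd28, a T cell costimulatory receptor, read 0.22, -0.24, -0.38 and 0.55 in WT_SD, -1.14, -1.96, -0.95 and -1.59 in CB1KO_SD, 0.55, 0.75, -0.35 and 1.18 in WT_HFHS and -1.97, -1.70, -1.60 and -1.64 in CB1KO_HFHS. It was lower in CB1KO on every array of both diets, with differences of -1.45 on SD (limma adjusted p = 0.208) and -2.26 on HFHS (limma adjusted p = 0.00861), with an interaction of -0.81 ± 0.44 (missing p under 0.05). The 17 T and B lymphocyte markers tested did not share this. Their median difference on HFHS was 0.12, with 11 above 0 and 6 below, and their median interaction was 0.15. Cd3d, another T cell marker, differed by -1.03 on SD and 0.81 on HFHS (interaction 1.84 ± 0.71). It was the only 1 of the list at p under 0.05 (5.88% beside 2.1% of all genes). Snph, which anchors mitochondria, differed by -1.85 on SD and -2.25 on HFHS (interaction -0.40 ± 0.53, missing p under 0.05). Dnase1, a secreted nuclease gene, differed by -1.05 and -2.11 (interaction -1.06 ± 0.51, missing p under 0.05).

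Toporsl and Nat1, an arylamine acetyltransferase, were not well above background on any CB1KO array, and on HFHS Toporsl was at least 1.21-fold and Nat1 at least 2.36-fold lower than in WT (limma adjusted p = 0.00976 and adjusted p = 0.0216). Both passed the filter on dim probes only through WT arrays, and neither had an interaction p under 0.05. Dmd, the dystrophin gene, fell by 1.06 on HFHS (limma adjusted p = 0.0216) and differed by -0.50 on SD (interaction -0.56 ± 0.25). Stab2, a scavenger receptor of sinusoidal endothelium, fell by 1.36 on HFHS (limma adjusted p = 0.0251) and differed by -0.64 on SD (interaction -0.72 ± 0.33). The interactions of Dmd and Stab2 stayed at p under 0.05 in 19 of 29 and 15 of 29 alternatives.

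Other lists had no member with an interaction p under 0.05, among them cytosolic ribosomal proteins (26 genes, median 0.03), muscle atrophy and proteasome ligases (26 genes, 0.03), autophagy and lysosome (25 genes, 0.05), the interferon response (35 genes, 0.16) and core clock genes (23 genes, -0.25). Endocannabinoid receptors and enzymes (16 genes, 0.05) had none either, nor had adipocyte markers (20 genes, 0.39), fibroblast markers (18 genes, 0.17) and skeletal muscle fibre markers (14 genes, 0.17). A p that misses the threshold does not show that these genes were alike on both diets.

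**Figure D5:**
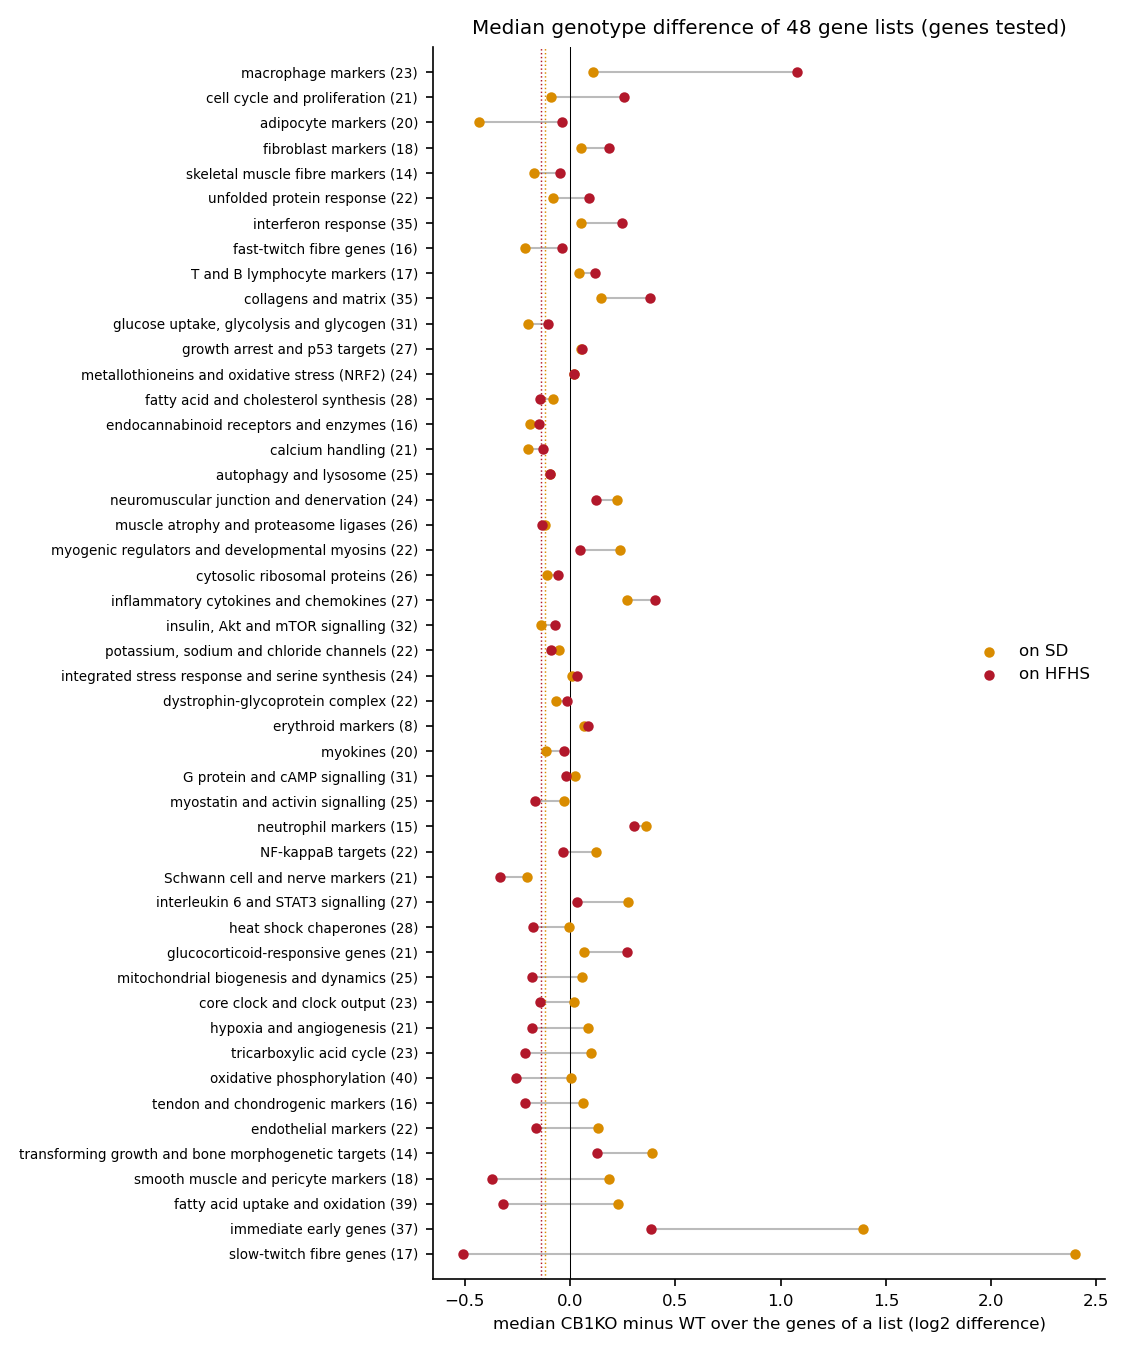
Median genotype difference (CB1KO minus WT, log2) over the tested genes of each of 48 lists on SD (orange) and on HFHS (red), with the number of genes tested in parentheses and lists ordered by their median interaction. Dotted lines mark the medians of all genes, -0.12 on SD and -0.14 on HFHS; slow-twitch fibre genes and immediate early genes are far to the right on SD only, and macrophage markers on HFHS only.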

How the data were processed

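RNA from muscle was hybridised to 16 one-colour Agilent arrays. The deposited processed intensity of each spot, background-corrected within the array, came from Feature Extraction 11.5.1.1, per the file headers. The deposited series table holds a score, found to be a z-score of log2 intensity within each array to within 0.00502, and served as an alternative only.

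Log2 intensities were reduced by the 75th percentile of their array. Control spots and outlier flags were left out, spots of a probe were averaged, and the brightest probe of a gene was kept where it was well above background on at least 4 arrays. Group means were fitted with limma 3.58.1 in R 4.3.3 and adjusted by Benjamini-Hochberg over 28972 genes, of which 17341 had a symbol, and the fit was checked on simulated data. Named genes were Cnr1, Il6 and Mstn, the smallest interaction p in each direction, pattern and list, and the largest calls on each diet. Further members of the lists that are counted were added after their values were seen, and only some of the genes that the rule allows are given values. The members and lists were chosen with earlier results of these data known. Upstream steps before scanning are as in the labels' protocols: TRIzol extraction and Cy3 labelling of 200 ng RNA. Sequences are RefSeq's (GRCm38.p6). Alternatives covered scaling, background, filters, probes, variance model, array weights, blocks and single arrays.

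Same-numbered arrays did not pair: 8 of 24 pairs correlated above 0.1 (range -0.75 to 0.61) in their deviations from group means.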

Additional observations from a re-analysis of the deposited data

Results flagged for a closer look

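Among the 120 genes tested for single arrays far from the rest of their group, 30 of 480 gene and group combinations had 1 array whose gap to the nearest other array took up most of the group's range. Chance flags about 1 in 20 groups of 4, so this number is near what chance gives. Values are levels, as log2 processed signal minus the 75th percentile of the array, with the nearest other array of the group in parentheses.

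The highest array stood apart for Il6 at -2.14 on CB1KO_HFHS replicate 4 (next -3.44), Jun at 5.73 on CB1KO_HFHS replicate 4 (next 5.27) and Egr2 at -0.93 on WT_HFHS replicate 4 (next -1.80). A single high array was seen for Has1 at 1.71 on CB1KO_SD replicate 4 (next -0.16), Golga7b at 0.59 on WT_SD replicate 1 (next -0.25) and Psat1 at -0.16 on WT_HFHS replicate 1 (next -0.86). High on 1 array were Calr at 4.16 on CB1KO_HFHS replicate 2 (next 3.83), Chrnb1 at -0.29 on WT_SD replicate 4 (next -0.80) and Dnase1 at -0.55 on WT_SD replicate 2 (next -1.19). Likewise high were Arhgef5 at 0.12 on WT_HFHS replicate 2 (next -0.05) and Egr1 at 3.57 on CB1KO_HFHS replicate 4 (next 0.77).

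The lowest array stood apart for Dnajb4 at 0.39 on WT_SD replicate 4 (next 0.58), Megf10 at -2.54 on CB1KO_HFHS replicate 4 (next -2.29) and Ctxn3 at 0.80 on WT_HFHS replicate 3 (next 1.67). A single low array was seen for Apln at -3.38 on WT_HFHS replicate 2 (next -2.70), Angpt1 at 1.18 on CB1KO_SD replicate 2 (next 1.88) and Catsperg1 at -5.22 on CB1KO_SD replicate 3 (next -4.08). Low on 1 array were Snph at -0.68 on WT_SD replicate 2 (next -0.30), Toporsl at -4.55 on WT_HFHS replicate 1 (next -4.21) and Ppara at 1.00 on CB1KO_SD replicate 2 (next 1.94). Likewise low were Ankrd2 at 0.42 on WT_SD replicate 1 (next 4.45), Acot1 at 2.08 on CB1KO_SD replicate 2 (next 2.98) and Acot1 at 0.77 on WT_HFHS replicate 4 (next 2.69).

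Among pancreatic transcripts, Try4 at 0.32 on WT_HFHS replicate 4 (next -0.32), Try4 at 0.15 on CB1KO_HFHS replicate 1 (next -5.38), Try5 at 0.71 on WT_HFHS replicate 4 (next -0.07), Cpb1 at -0.55 on WT_HFHS replicate 4 (next -1.42), Amy2a5 at 2.74 on WT_HFHS replicate 4 (next 2.01) and Cpa1 at -0.81 on CB1KO_HFHS replicate 1 (next -3.63) stood above their group, and Ins2 at 0.10 on CB1KO_SD replicate 1 (next 0.25) below it. CB1KO_HFHS replicate 1 was the high array for Try4 and Cpa1, and WT_HFHS replicate 4 for Try4, Try5, Cpb1 and Amy2a5.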

How the results depend on the processing

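Over 120 of the named genes and all settings, an unadjusted interaction p under 0.05 was lost 334 times and gained 67 times. The sign turned 15 times, for Cnr1, Toporsl and Mstn, none of them at p under 0.05. Cnr1 was at -0.00984 with normexp and quantile normalization, -0.33 with array weights, -0.0059 with signal spread as a covariate, -0.46 without both arrays of unusual spread and -0.23 to 0.39 with 1 array left out. Toporsl was at 0.018 with quantile normalization, 0.27 with normexp as well, 0.16 without the 2 arrays of unusual spread and 0.030 with array weights. Mstn ran from -0.64 to 0.0052 with 1 array left out. The median interaction of 24 of the 48 lists turned sign under at least 1 alternative, that of the neuromuscular list among them. Leaving out 1 array at a time gave 0 to 11 genes past the adjusted interaction threshold and 808 to 1934 at unadjusted p under 0.05. It gave 0 to 12 genotype calls on SD and 15 to 134 on HFHS. By pattern it gave 12 to 40 on SD only, 25 to 72 on HFHS only, 16 to 46 opposite and 4 to 17 in the same direction. The list counts ran from 3 to 16 for fatty acid genes, 3 to 13 for immediate early genes, 1 to 8 for smooth muscle, 3 to 6 for heat shock and 3 to 5 for the unfolded protein response. Genotype calls on HFHS were 26, 19, 36 and 31 without WT_HFHS replicates 1, 2, 3 and 4, and 43 and 24 without CB1KO_HFHS replicates 2 and 4. Quantile normalization gave 21 genes on SD only and 24 calls on SD. With normexp as well, 1 gene passed the adjusted interaction threshold, and there were 19 on HFHS only, 14 opposite, 21 calls on SD and 123 on HFHS. The deposited table gave 14 in the same direction, 2 smooth muscle genes and 25 calls on SD. With no filter on dim probes 41 were opposite. With all arrays above background, which tests fewer genes, 23 were on HFHS only, 6 opposite, 5 in the same direction and 7 called on SD. The mean of probes gave 4 calls on SD. A trended, robust variance gave 8 smooth muscle genes, 6 calls on SD and 110 on HFHS. Array weights gave 4048 genes at unadjusted interaction p under 0.05, 113 on SD only, 95 on HFHS only, 119 opposite, 28 in the same direction, 9 heat shock genes, 48 calls on SD and 2124 on HFHS. The replicate block gave 3 smooth muscle genes and 36 calls on HFHS, 33 of them shared with the 72, and changed the other counts by less than 1.5 times. In the check of the numbers, 5 of 16 arrays correlated best with their own number. Signal spread as a covariate gave 2085 genes at unadjusted p, 32 on SD only, 64 on HFHS only, 53 opposite, 16 in the same direction, 148 calls on SD and 345 on HFHS. Without both arrays of unusual spread, 10 genes passed the adjusted interaction threshold and 3085 the unadjusted one, with 158 on SD only, 69 on HFHS only, 107 opposite, 31 in the same direction, 227 calls on SD and 190 on HFHS. With the arrays of 1 diet alone there were 0 calls on SD and 41 on HFHS. The slide as a block gives the same fit by construction. In these settings the cause was not tested. The list counts and the pancreatic list were added after seeing the data.

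The limits are that each group is 1 slide row, that diet and slide cannot be told apart, and that genes near background have only bounds.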
